A study of Caenorhabditis elegans with 12 samples.

Results

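The response of Caenorhabditis elegans larvae to omega-6 fatty acids as a class was measured by setting the mean of 3 acid treatments against a vehicle control. All 12 arrays of the series entered it, 9 from acid-fed and 3 from control animals. The acid arrays were 3 of linoleic acid (LNA), 3 of gamma-linolenic acid (GLA) and 3 of dihomo-gamma-linolenic acid (DGLA), each at 1000 µM in the agar, and the control arrays came from agar with the ethanol vehicle alone (1% v/v), which the acid plates held too. Every group was wild-type strain N2, age-synchronised, put on plates as about 2000 first-stage larvae and fed Escherichia coli OP50 at 20 °C up to the fourth larval stage (L4). Each array held RNA from whole animals of 1 biological replicate, so a change in 1 tissue is diluted by the others, and fewer cells of a type cannot be told apart from less RNA per cell.

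LNA, GLA and DGLA are successive members of the omega-6 series. GLA is LNA with an added double bond, put in by the delta-6 desaturase FAT-3, and DGLA is GLA lengthened by an elongase. Worms make all of them from the monounsaturated acid oleic acid and build them into membrane lipids. Fatty acids that are not stored are broken down by beta-oxidation, which shortens the chain step by step in mitochondria and in peroxisomes, and double bonds need auxiliary enzymes such as dienoyl-CoA reductases. The intestine of the worm handles both dietary fat and defence against ingested bacteria, and defends through secreted proteins such as lysozymes, C-type lectins and proteins with CUB-like domains.

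Values are log2 signals after RMA, a procedure that corrects background, normalises arrays to each other and combines the probes of a gene. Array medians lay between 4.47 and 4.56. LNA replicates 2 and 3 stood apart from the rest: on the first principal component, which held 23.1% of the variance, they scored 41.95 and 35.68, and the other 10 arrays lay between -18.02 and 3.64. Of the 84 genes called below, 56 were still called with these 2 arrays left out and all 84 kept their sign, with log2 changes 0.815 to 1.145 times those from all arrays.

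Each pooled change is the mean of the 3 acid means minus the control mean, so each acid has the same weight and differences among the acids do not enter its error. At an adjusted p under 0.05 (limma, Benjamini-Hochberg over 29317 probe sets) 89 probe sets changed (0.304% of those tested), 60 of them higher (0.205%) and 29 lower (0.0989%) with the acids. They stood for 84 of 25478 genes (0.330%), 57 higher (0.224%) and 27 lower (0.106%), and 83 of the 84 code for proteins. At least 2-fold changes were found in 16 of the higher and 9 of the lower genes. In 45 of the 57 every acid array lay above every control array, as it did in 0.879% of all genes, and in 18 of the 27 every acid array lay below, as in 0.498% of all genes. The called genes had a median control signal of 6.45, where the median of all genes was 4.54. Leaving out control replicate 1 or 2 brought the 89 probe sets down to 51 or 52.

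Whether a pooled change was alike with each acid was asked with a moderated F test among the 3 acids, which uses no control array but shares the gene's residual spread with the pooled test. Of all genes 62 (0.243%) passed it at an adjusted p under 0.05 and 2518 (9.88%) at an unadjusted p under 0.05. This test leaned on single arrays more than the pooled test, and its 73 probe sets became 1067 without LNA replicate 1 and 30 to 42 without LNA replicate 2 or 3, any GLA array, or DGLA replicate 2 or 3. Among the 84 called genes 23 passed it after adjustment and 45 more before adjustment only, 68 in all or 81.0%, and 16 did not pass at either. Genes with a small residual spread pass both tests more readily, so the 2 percentages describe these genes and do not show that being called made a difference among acids likelier. The size of the change was most often largest with DGLA and smallest with LNA. DGLA gave the largest change in 39 of the 57 higher genes (68.4%) and in 18 of the 27 lower genes (66.7%), and LNA the smallest in 44 (77.2%) and 22 (81.5%). For all genes the acid means were ranked in the direction of the pooled change, a ranking that gives the same counts in the called genes. Among all genes with a pooled change above 0, DGLA lay furthest in that direction in 27.1% and LNA least far in 26.5%. For changes below 0 these shares were 32.1% and 39.8%. Over all genes the acid that lay least far can have moved the opposite way. The median change of the 57 higher genes was 0.55 with LNA, 0.87 with GLA and 1.14 with DGLA on the log2 scale. For the 27 lower genes it was -0.51, -0.78 and -1.09.

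**Figure D1:**
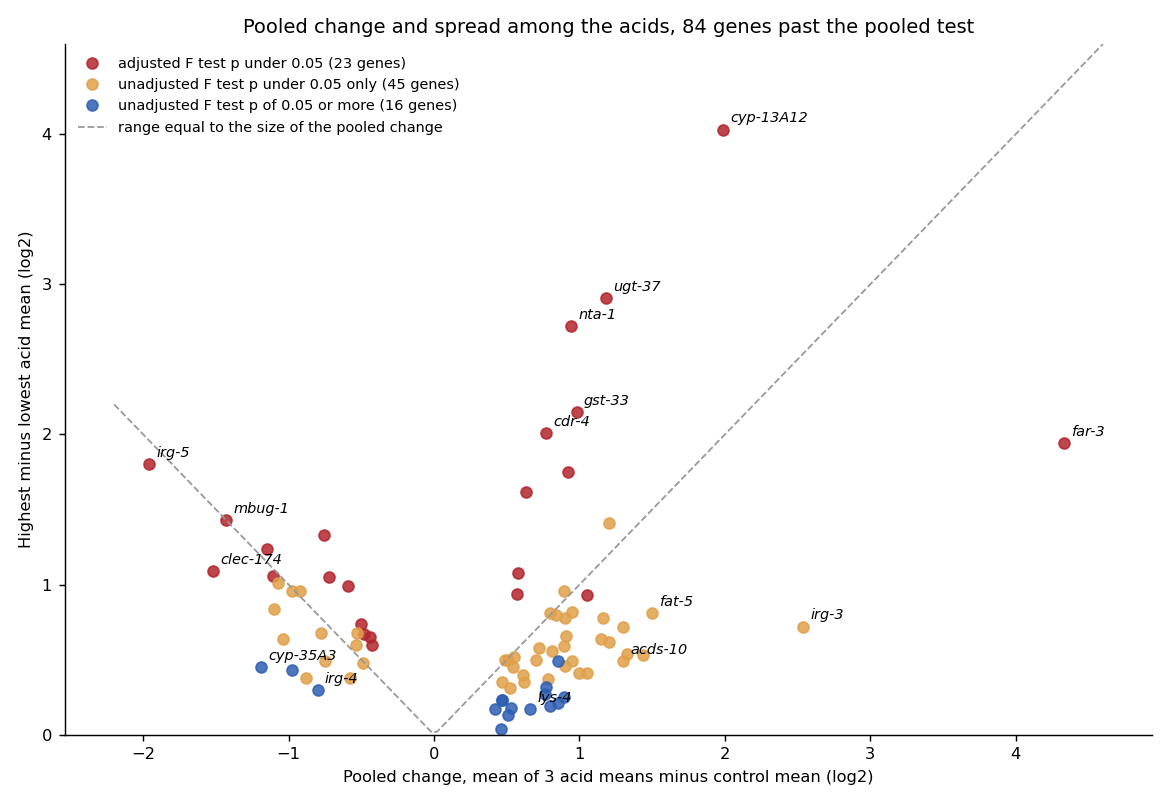
Each point is 1 of the 84 called genes, with its pooled change on the horizontal axis (log2, mean of the 3 acid means minus control mean) and the highest minus the lowest acid mean on the vertical axis (log2), coloured by the F test among the acids. Points above the dashed lines differ more between acids than their pooled change is large; far-3 (pooled change 4.33) and irg-3 (2.54) lie well below them, and cyp-13A12, with a range of 4.03, lies highest.

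The gene that rose furthest was far-3 (F15B9.1), of the FAR family of secreted fatty acid and retinol binding proteins. Its signals were 6.90, 8.0 and 6.95 with LNA, 9.40, 9.13 and 9.14 with GLA and 9.21, 9.13 and 8.91 with DGLA, against 4.35, 4.20 and 4.05 in control. All acid arrays lay above all control arrays, and the LNA arrays lay below those of the other acids. The pooled change was 4.33 (SE 0.196, 95% interval 3.90 to 4.76), or 20.1-fold (adjusted p = 2.28e-06). It was 8.47-fold with LNA, 32.5-fold with GLA and 29.5-fold with DGLA, and the acids differed (F test, adjusted p = 0.00655). That difference missed the threshold without LNA replicate 3 (adjusted p = 0.0519). The other 7 FAR genes did not pass, with pooled changes from -0.10 (far-8) to 0.10 (far-1), and neither did any of the 9 intracellular lipid binding proteins of the LBP family (median change 0.15).

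Of 19 desaturases and elongases 1 rose, fat-5, a delta-9 desaturase that acts on palmitic acid. It read 6.12, 6.43 and 6.38 with LNA, 5.52, 5.6 and 5.36 with GLA and 5.70, 5.74 and 5.64 with DGLA, against 4.14, 4.22 and 4.64 in control. All acid arrays were higher than all control arrays, and the LNA arrays were the highest, in contrast to most called genes. The pooled change was 1.5 (SE 0.111), or 2.83-fold (adjusted p = 9.89e-05), with 1.97 for LNA, 1.16 for GLA and 1.36 for DGLA. The difference among the acids did not pass (adjusted p = 0.0695). The other desaturases and elongases of the polyunsaturated pathway did not pass the pooled test: fat-1, the omega-3 desaturase, changed by 0.21 (adjusted p = 0.742) and fat-2, the delta-12 desaturase, by 0.04 (0.991). The delta-6 desaturase gene fat-3 changed by 0.18 (0.911) and the delta-5 desaturase gene fat-4 by 0.09 (0.984). For the stearoyl-CoA desaturase genes the changes were 0.06 for fat-6 (0.988) and 0.39 for fat-7 (0.628), and for the elongase genes 0.28 for elo-1 (0.242) and -0.19 for elo-2 (0.817). For elo-1 all acid arrays (11.87 to 12.24) nevertheless lay above all control arrays (11.71 to 11.78). In fat-7 the LNA change was -0.18, where GLA gave 0.56 and DGLA 0.81, and with the LNA group left out fat-7 passed (adjusted p = 0.0196).

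The list named peroxisomal beta-oxidation held the densest group of rises: 7 of its 17 genes were higher and 0 lower. That is 41.18%, where 0.224% of all genes were higher. Its median change was 0.28, where the median of all genes was 0.0033. These 7 were also called without LNA replicates 2 and 3. The list was chosen with earlier results of these data known, so its count is no independent evidence. Among the 7 were acox-1.1 and acox-3, which code for acyl-CoA oxidases of the entry step, and maoc-1 for the hydratase. Also among them were dhs-28 for the hydroxyacyl-CoA dehydrogenase and daf-22 for the thiolase that ends each round. The remaining pair were decr-1.1, a dienoyl-CoA reductase, and dhrs-4, a dehydrogenase/reductase. Whether the products of this pair act in peroxisomal beta-oxidation was not tested. Signals of decr-1.1 were 8.61, 8.97 and 8.67 with LNA, 9.17, 9.07 and 9.06 with GLA and 9.53, 9.25 and 9.33 with DGLA, against 7.89, 7.91 and 7.82 in control. Those of dhrs-4 were 6.79, 6.95 and 6.59 with LNA, 7.15, 7.05 and 6.72 with GLA and 7.65, 7.19 and 7.11 with DGLA, against 5.73, 5.73 and 5.62 in control. In both genes no acid array came near the control arrays, whose SD was 0.0633 in dhrs-4 and 0.0454 in decr-1.1. The pooled change was 1.2 (SE 0.0897) or 2.30-fold for decr-1.1 (adjusted p = 9.89e-05) and 1.33 (SE 0.128) or 2.51-fold for dhrs-4 (adjusted p = 0.000522).

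The oxidase gene acox-1.1 averaged 8.46 ± 0.0681 with LNA, 8.82 ± 0.158 with GLA and 8.95 ± 0.1 with DGLA (SD, n = 3). In control it averaged 7.80 ± 0.0487 (SD, n = 3), and the pooled change was 0.95 (adjusted p = 0.000261). Changes of the other 4 were 0.91 for maoc-1 (adjusted p = 0.00264), 0.89 for daf-22 (0.00154), 0.72 for acox-3 (0.00416) and 0.61 for dhs-28 (0.00336). The call of dhs-28 ended with the 9 acid arrays as 1 group and without the DGLA group (0.0659 to 0.0922). In each of the 7 genes the order was LNA, GLA, DGLA from the smallest change to the largest, for example 0.57, 0.94 and 1.16 in daf-22 and 0.62, 0.83 and 1.28 in maoc-1. None of the 7 passed the F test among the acids after adjustment, and all 7 had an unadjusted p under 0.05 there, from 0.000466 (decr-1.1) to 0.0158 (dhrs-4). The 10 members that did not pass ranged from -0.07 (decr-1.3) to 0.38 (ctl-2, a peroxisomal catalase), and the oxidase genes acox-1.2 (0.25), acox-1.4 (0.23) and acox-1.5 (-0.06) were among them. No peroxin passed, of 11 listed genes that build the organelle, but all 11 changes were above 0 (median 0.26), from 0.01 for prx-10 to 0.52 for prx-12 (adjusted p = 0.179). Of the 25478 genes 13035 had a change above 0. The peroxisomal protease gene lonp-2 rose by 0.70 (adjusted p = 0.0157) and ads-1, which makes ether lipid precursors in that organelle, by 0.42 (0.0377), and both calls ended without LNA replicates 2 and 3 (0.0801 and 0.095). That of lonp-2 also ended without control replicate 1 or 3 (0.0653 to 0.119) and that of ads-1 without any array but LNA replicates 1 and 2 (0.0573 to 0.233).

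In the list named mitochondrial beta-oxidation 4 of 34 genes were higher and 1 lower (median 0.14), and these counts were the same without LNA replicates 2 and 3. With all arrays 14.71% of this list was called, where 0.330% of all genes were. The 3-hydroxyacyl-CoA dehydrogenase gene B0272.3, described below, was not on this list. Where in the cell the listed proteins act was not tested. The acyl-CoA dehydrogenase gene acds-10 read 8.22, 8.57 and 8.28 with LNA, 8.69, 8.69 and 8.53 with GLA and 8.93, 8.86 and 8.76 with DGLA, against 7.23, 7.38 and 7.33 in control. No array of 1 side overlapped the other, and the change was 1.3 (SE 0.0871), or 2.46-fold (adjusted p = 4.5e-05). Also higher were ech-8 of the enoyl-CoA hydratase family (1.05, adjusted p = 0.00336), and cpt-5 (0.95, 0.00833) and cpt-6 (0.81, 0.0214) of the carnitine palmitoyltransferase family, which passes acyl chains to carnitine for entry into mitochondria. The call of cpt-5 ended without control replicate 1 (0.0725) and that of cpt-6 without any 1 control array, GLA replicate 1 or 2, or DGLA replicate 3 (0.0514 to 0.138). Lower was hacd-1, a hydroxyacyl-CoA dehydrogenase gene, with 5.85, 5.53 and 5.95 for LNA, 5.81, 6.16 and 5.64 for GLA and 6.46, 6.22 and 6.57 for DGLA, against 6.87, 7.12 and 7.20 in control. Its DGLA arrays were nearest to control, and the pooled change was -1.04 (SE 0.131, adjusted p = 0.00416). The carnitine palmitoyltransferase gene cpt-4 missed the pooled threshold at -0.37 (adjusted p = 0.0678), with a change of -1.05 with LNA, -0.70 with GLA and 0.63 with DGLA. Those acid means differed (F test, adjusted p = 7.93e-06), so that a mean over acids describes no single acid there. The related gene cpt-3 averaged 0.75 (adjusted p = 0.12) from 1.49 with LNA, 0.43 with GLA and 0.35 with DGLA, a difference among acids that did not pass (F test, adjusted p = 0.0513).

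The next largest rise after far-3 was that of irg-3, an infection response gene. Its signals were 8.46, 9.16 and 8.86 with LNA, 9.56, 9.43 and 9.49 with GLA and 9.68, 9.51 and 9.44 with DGLA, against 6.84, 6.87 and 6.54 in control. The acid and control arrays lay more than the whole spread of either apart, and the change was 2.54 (SE 0.129) or 5.81-fold (adjusted p = 4.32e-06). Differences among the acids did not pass after adjustment (F test, adjusted p = 0.176). The other genes among the 12 furthest rises with no overlap were T25G12.13 (1.44), Y87G2A.2 (1.3), B0272.4 (1.16), K05B2.4 (1.15) and the carboxylesterase gene cest-12 (1.05). Their adjusted p ran from 0.000215 for T25G12.13 to 0.0218 for K05B2.4. The call of K05B2.4 ended in 5 of the 12 fits without 1 array, with an adjusted p of 0.0514 to 0.143, namely without control replicate 1 or 3, GLA replicate 1 or 2, or DGLA replicate 2, and without LNA replicates 2 and 3 (0.0564). Those of far-3, irg-3, fat-5, T25G12.13, dhrs-4, acds-10, Y87G2A.2 and decr-1.1 held under every alternative run.

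**Figure D2:**
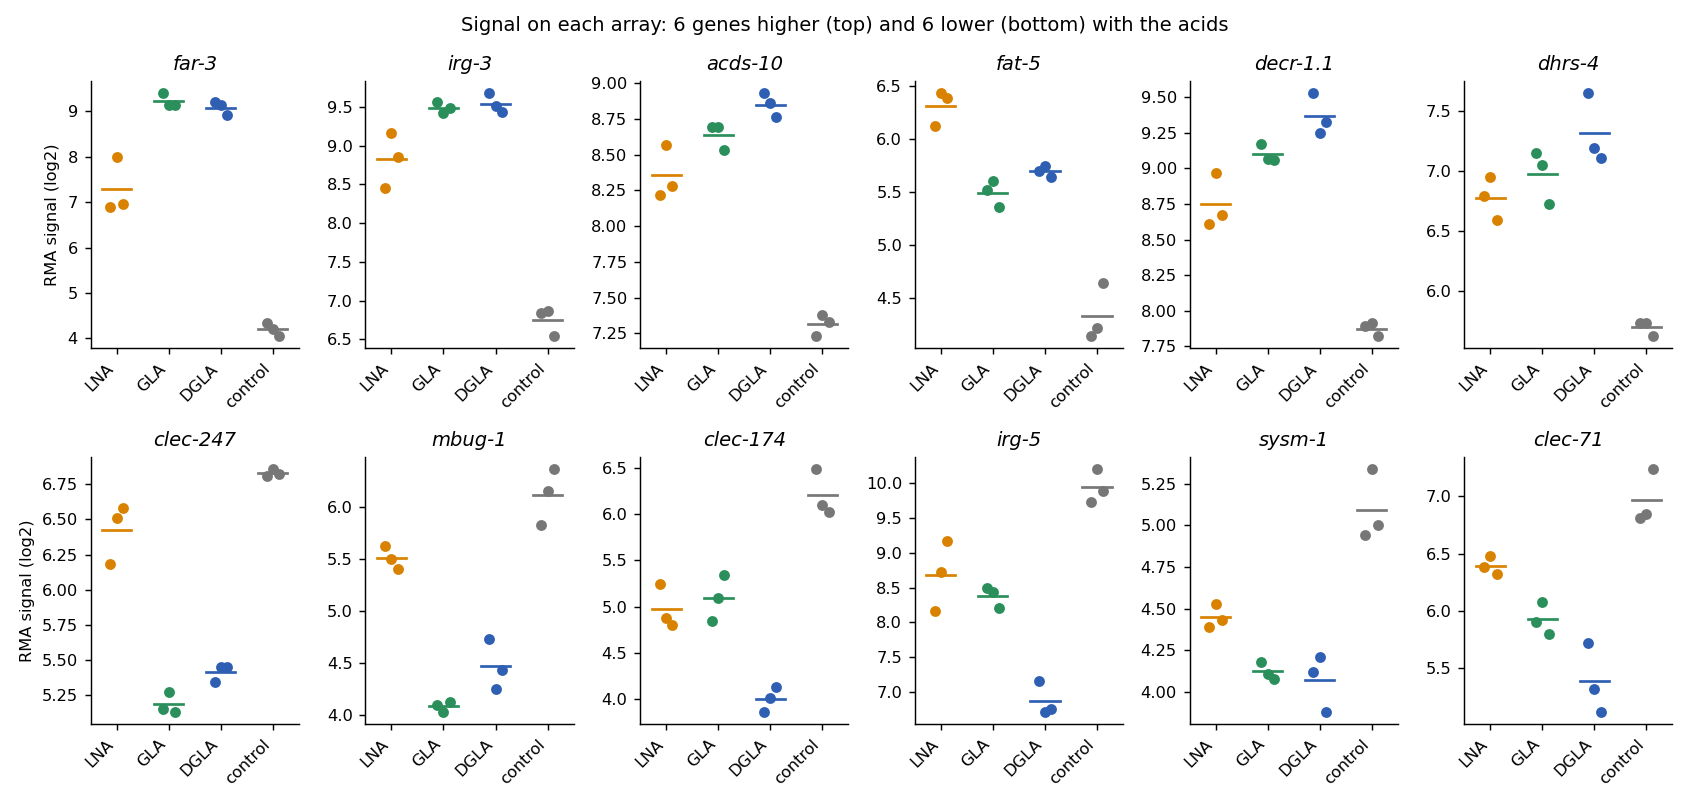
Log2 RMA signal on each array for 6 genes that rose (top row) and 6 that fell (bottom row), in the groups LNA, GLA, DGLA and control, with points for arrays and lines for group means; each panel has its own vertical scale. In all 12 panels the 9 acid arrays lie on 1 side of the 3 control arrays, fat-5 is highest with LNA, and irg-5 is lowest with DGLA.

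Of 14 genes on the array listed as CUB-like immune effectors 8 fell and 0 rose, with a median change of -0.71. That is 57.14% called, where 0.330% of all genes were. Without LNA replicates 2 and 3, 7 fell. With all arrays, the median change of the 14 was -0.26 with LNA, -0.57 with GLA and -1.06 with DGLA. The acids differed in 7 of the 14 (F test, adjusted p under 0.05), as in 0.243% of all genes, so the pooled falls were not alike with each acid. Whether each member, sysm-1 included, codes for a protein with a CUB-like domain was not tested. This list was drawn up with earlier results of these arrays in view, so its direction is no independent evidence. Its furthest fall was that of irg-5, with 8.16, 8.73 and 9.16 for LNA, 8.49, 8.43 and 8.21 for GLA and 7.16, 6.72 and 6.76 for DGLA, against 9.73, 10.20 and 9.89 in control. No acid array reached the control arrays and the 3 DGLA arrays were the lowest. The pooled change was -1.96 (SE 0.182, adjusted p = 0.000445), and DGLA lay below LNA by 1.80 (joint adjusted p = 0.00868) and below GLA by 1.5 (0.0273). The joint adjustment covers the 3 pairs of acids over all probe sets.

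A different order was seen in mbug-1, with 5.63, 5.50 and 5.41 for LNA, 4.10, 4.03 and 4.12 for GLA and 4.73, 4.25 and 4.43 for DGLA, against 5.83, 6.16 and 6.37 in control. Here the LNA arrays stood just under the control arrays and the GLA arrays were the lowest. The pooled change was -1.43 (SE 0.122, adjusted p = 0.000261), with GLA below LNA by 1.43 (joint adjusted p = 0.00257). The fall of sysm-1 was steadier, to 4.45 ± 0.0707 with LNA, 4.12 ± 0.0482 with GLA and 4.07 ± 0.175 with DGLA (SD, n = 3). Its control arrays averaged 5.09 ± 0.216 (SD, n = 3). The pooled change was -0.88 (adjusted p = 0.00193), and its call held under every alternative. The other 5 were F55G11.2 (-0.92, adjusted p = 0.0214), irg-4 (-0.80, 0.00582), F55G11.8 (-0.76, 0.0112), C32H11.4 (-0.72, 0.0251) and dod-22 (-0.59, 0.0365). Some of these calls hung on 1 array: irg-4 did not pass without control replicate 2 (0.0522), F55G11.8 without control replicate 2 or 3 (0.0772 to 0.109), and F55G11.2 without control replicate 2 or 3 or GLA replicate 1 or 2 (0.0521 to 0.16). The calls of C32H11.4 (0.0514 to 0.196) and dod-22 (0.0525 to 0.205) ended in 8 and 9 of the 12 fits without 1 array, those without any 1 control array for dod-22 and without control replicate 2 or 3 for C32H11.4 among them. That of dod-22 also ended without LNA replicates 2 and 3 (0.117). The 6 others did not pass, from -0.70 for dod-17 to 0.02 for fdr-1. In the gene table F55G11.8, dod-22, F55G11.2 and mbug-1 follow each other with no other protein-coding gene between them. Whether probes of one such related gene also bind transcripts of another was not tested.

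Among the 8 infection response genes, which share irg-4, irg-5 and irg-6 with that list, 1 rose (irg-3) and 2 fell (37.5% called). The others ranged from -0.34 for irg-2 to -0.01 for irg-1. Called were 1.21% of the 247 C-type lectins, where 0.330% of all genes were. The lectins gave 3 falls and 0 rises (median change -0.003), in clec-174, clec-247 and clec-71. The first read 5.24, 4.88 and 4.80 with LNA, 4.84, 5.09 and 5.34 with GLA and 3.86, 4.01 and 4.13 with DGLA, against 6.49, 6.10 and 6.02 in control. Its arrays did not overlap between acids and control, and the change was -1.52 (SE 0.136, adjusted p = 0.000353), with DGLA below GLA by 1.09 (joint adjusted p = 0.0298). Its neighbour clec-71, with no protein-coding gene between them, fell by 1.07 (adjusted p = 0.00336). In clec-247 the change was -1.15 (SE 0.088, adjusted p = 0.00011), made of -0.41 with LNA, -1.64 with GLA and -1.41 with DGLA, and the LNA arrays (6.18, 6.51 and 6.58) lay between those of the other acids (5.13 to 5.45) and of control (6.81 to 6.86). One lysozyme of 16 rose, lys-4, and none of 28 saposin-like proteins passed.

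The remaining falls among the 12 furthest with no overlap were those of the cytochrome P450 gene cyp-35A3 (-1.19, adjusted p = 0.015), F09C8.1 (-1.11, 0.00168), F13A7.11 (-0.98, 0.0282) and F22H10.2 (-0.98, 0.00625). The call of cyp-35A3 ended without any 1 of the control arrays (0.062 to 0.119) and without LNA replicates 2 and 3 (0.0972). F22H10.2 did not pass without control replicate 1 or 2 (0.0573 to 0.0583). For F13A7.11 this was so without control replicate 1 or 2, LNA replicate 2, GLA replicate 1 or 3, or DGLA replicate 3 (0.0501 to 0.204), and without LNA replicates 2 and 3 together (0.0608). The claudin-like gene clc-19 fell by 1.1 (0.027) with overlapping arrays, its control signals being 6.94, 6.43 and 5.97. That call ended in 9 of the 12 fits without 1 array (0.0523 to 0.16), all but those without control replicate 3, LNA replicate 2 and DGLA replicate 1.

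Among enzymes that modify foreign and lipid compounds there were 2 rises and 1 fall in 74 cytochrome P450 genes (4.05% of them called), 3 rises in 67 UDP-glycosyltransferases (4.48%), 1 rise in 45 glutathione S-transferases (2.22%) and 4 rises in 68 short-chain dehydrogenases (5.88%). Of all genes 0.330% were called. The medians of these 4 lists lay between 0.02 and 0.07. The called dehydrogenase/reductase gene dhrs-4, described above, was not on the list of short-chain dehydrogenases. The dehydrogenases were dhs-18 (0.90, adjusted p = 0.00524), dhs-9 (0.78, 0.00963), dhs-28 and dhs-19 (0.54, 0.045), and the call of dhs-9 ended without control replicate 2 or 3 (0.0655 to 0.0676) and that of dhs-19 without any array but LNA replicate 1 (0.0728 to 0.259). cyp-13B1 rose by 0.89 (0.0082) and ugt-33 by 0.84 (0.00833), calls that likewise ended without control replicate 2 or 3 (0.0613 to 0.0762 and 0.0638 to 0.0673), that of ugt-33 also without LNA replicates 2 and 3 (0.0609). Of 271 nuclear hormone receptors, transcription factors that can bind lipids, nhr-11 was the 1 called gene (0.90, 0.0157), a share of 0.37% that is close to the 0.330% of all genes. Its call ended without control replicate 1 or 3 (0.11 to 0.129). Both beta-carotene oxygenase genes rose in the pooled test, bcmo-1 by 1.2 (0.0328) and bcmo-2 by 0.57 (0.0251), with overlapping arrays. With LNA, GLA and DGLA the changes were 0.39, 1.8 and 1.41 for bcmo-1 and 0.09, 1.03 and 0.58 for bcmo-2. Neither gene passed with LNA alone against control (adjusted p 0.627 and 0.827). The acids differed in bcmo-2 (F test, adjusted p = 0.0117), and in bcmo-1 this did not pass (0.0978). Their calls ended in 10 fits without 1 array for bcmo-1 (0.0563 to 0.184, all but control replicate 3 and LNA replicate 3) and in 5 for bcmo-2 (0.055 to 0.161, control replicate 1 or 3 or any GLA array). None of the 8 glutathione peroxidases passed (median 0.24), none of the 11 superoxide dismutases and catalases, 20 heat shock proteins, 8 lysosomal lipases, 4 peroxisomal transporters or 5 vitellogenins, and none of the 62 ribosomal proteins, 166 cuticle collagens, 40 insulin-like peptides or 109 neuropeptides.

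**Figure D3:**
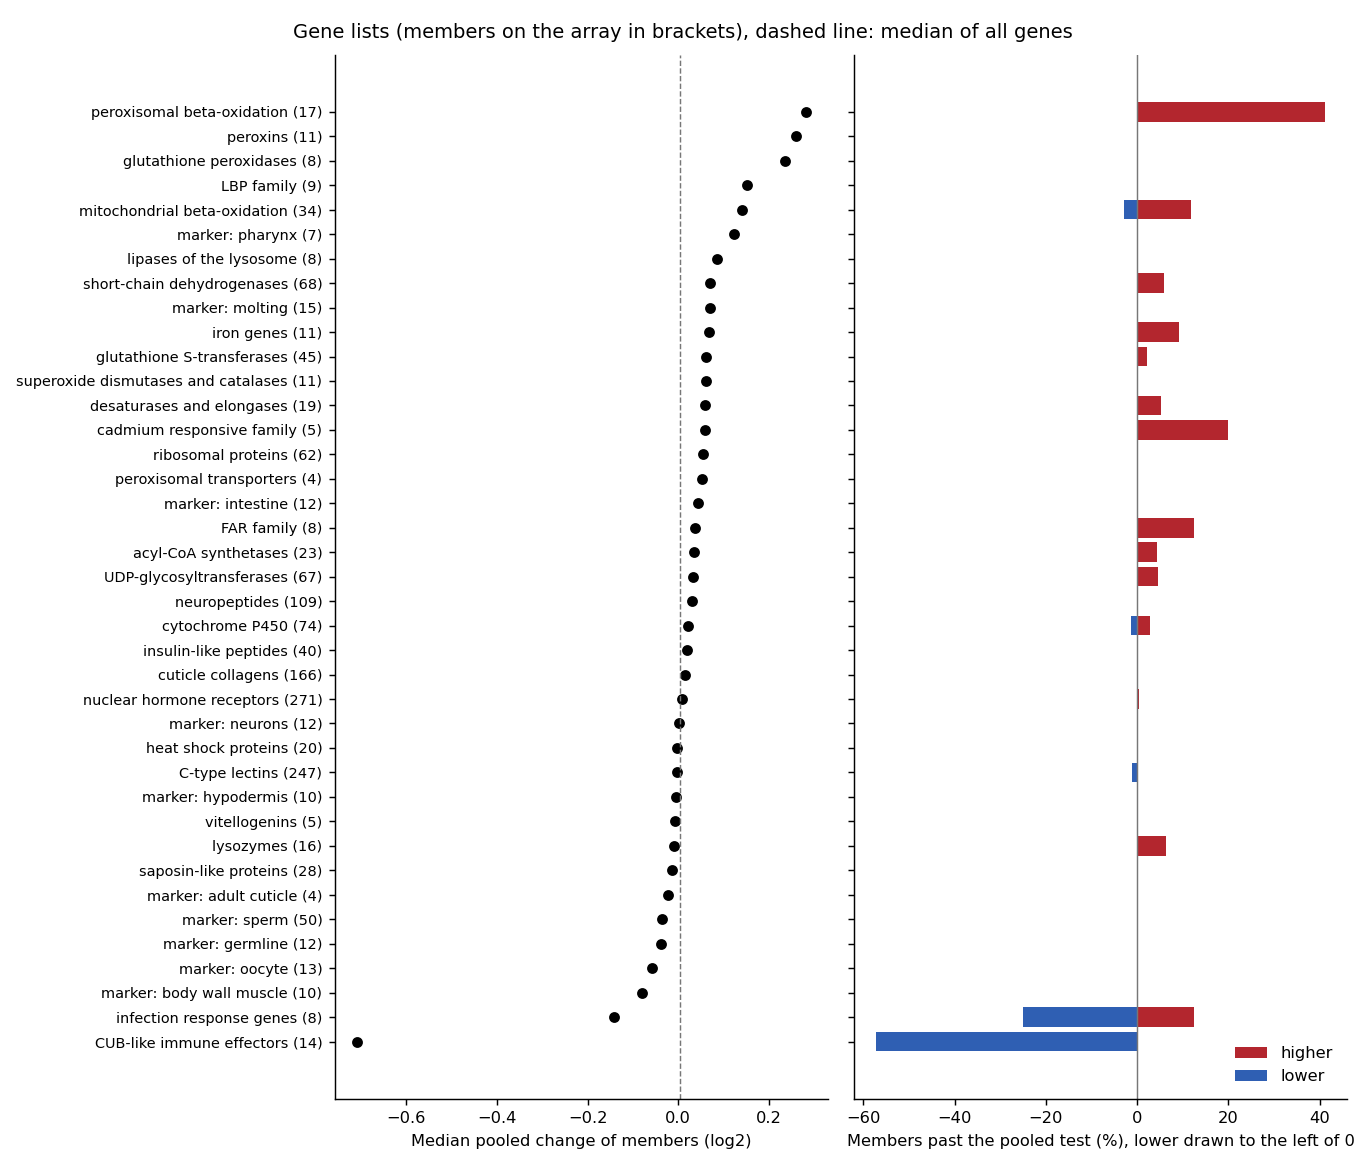
For each of the 39 gene lists, the median pooled change of its members on the array (left, log2, mean of the 3 acid means minus control mean) and the share of members past the pooled test (right, in percent, higher to the right and lower to the left of 0). Peroxisomal beta-oxidation (7 of 17 higher) and CUB-like immune effectors (8 of 14 lower) lie at the ends, and the 10 tissue marker lists have no called member, where 0.330% of all genes were called.

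The 16 genes without a detected difference among acids, 13 higher and 3 lower, had acid means within 0.04 to 0.49 of each other (median 0.23). They were selected by that F test, so the narrow ranges are a description. The upper 95% bounds of the widest difference between acids were 0.26 to 0.93, so differences of that size could have gone undetected. The lysozyme gene lys-4 read 10.29, 10.56 and 10.53 with LNA, 10.38, 10.27 and 10.24 with GLA and 10.47, 10.42 and 10.46 with DGLA, against 9.78, 9.70 and 9.76 in control. The LNA arrays lay on both sides of the DGLA arrays and overlapped those of GLA, and all acid arrays lay above control. The change was 0.66 (SE 0.0746), or 1.58-fold (adjusted p = 0.002), with 0.72, 0.55 and 0.71 for LNA, GLA and DGLA, and the widest difference of 0.17 had an interval of -0.03 to 0.37.

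The acyl-CoA synthetase gene acs-7, the only called one of 23 that activate fatty acids, changed by 0.89 (SE 0.0863, adjusted p = 0.000562), with 0.75, 1.01 and 0.90 for LNA, GLA and DGLA. Its widest difference was 0.25 (interval 0.02 to 0.48). Y53G8B.2 changed by 0.85 (0.00279), with 0.78, 0.78 and 0.98, and D2063.1 by 0.80 (0.00509), with 0.78, 0.90 and 0.72. The calls of lys-4, acs-7 and Y53G8B.2 held under every alternative, and that of D2063.1 ended only with the GLA group left out (0.0662). A further 4 passed the pooled test less firmly: pho-8 of the acid phosphatase family (0.76, adjusted p = 0.0172), ceeh-2, an epoxide hydrolase gene (0.77, 0.0251), F43H9.4 (0.51, 0.0225) and F13B9.2 (0.53, 0.0214). Each of these calls ended without LNA replicates 2 and 3 (0.0564 to 0.106). They also ended without single arrays (0.0512 to 0.169), any control array for pho-8 and F13B9.2, any control or GLA array or DGLA replicate 3 for F43H9.4, and control replicate 1 or 3, LNA replicate 3, GLA replicate 2 or 3 or any DGLA array for ceeh-2. Of the 3 lower genes irg-4 changed by -0.69, -0.99 and -0.72 with LNA, GLA and DGLA. For cyp-35A3 the values were -0.98, -1.43 and -1.16, and for F13A7.11 they were -0.73, -1.05 and -1.17.

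Pooling 3 acids lowered the median standard error to 0.111, where it was 0.136 for 1 acid against control, and 4 genes passed the pooled test that passed with no single acid. They were hrg-7, a secreted protease that acts in heme signalling between tissues, B0272.3, a 3-hydroxyacyl-CoA dehydrogenase gene, F13B9.2 and Y23H5B.8. hrg-7 read 10.92, 11.05 and 10.91 with LNA, 10.94, 10.88 and 10.78 with GLA and 10.75, 10.65 and 10.77 with DGLA, against 10.51, 10.37 and 10.26 in control, a change of 0.47 (adjusted p = 0.0251). B0272.3 read 9.55, 9.86 and 9.74 with LNA, 9.70, 9.68 and 9.65 with GLA and 9.79, 9.63 and 9.68 with DGLA, against 9.24, 9.33 and 9.13 in control. Its acid means were the closest of all called genes, at 0.48, 0.44 and 0.46 above control (widest difference 0.04, interval -0.18 to 0.26). All 4 had no overlap between acid and control arrays, and all 4 calls were fragile: that of B0272.3 ended in 11 and that of Y23H5B.8 in 10 of the 12 fits without 1 array, with an adjusted p of up to 0.225 in both, the exceptions being LNA replicate 1 for B0272.3 and GLA replicate 3 and DGLA replicate 1 for Y23H5B.8. For hrg-7 (up to 0.167) it ended without control replicate 2 or 3, GLA replicate 1 or 2, or DGLA replicate 3, and for F13B9.2 (up to 0.167) without any 1 control array. All 4 calls ended without LNA replicates 2 and 3 (0.0564 to 0.0996). B0272.3 lies beside B0272.4, which rose by 1.16, with no protein-coding gene between them.

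**Figure D4:**
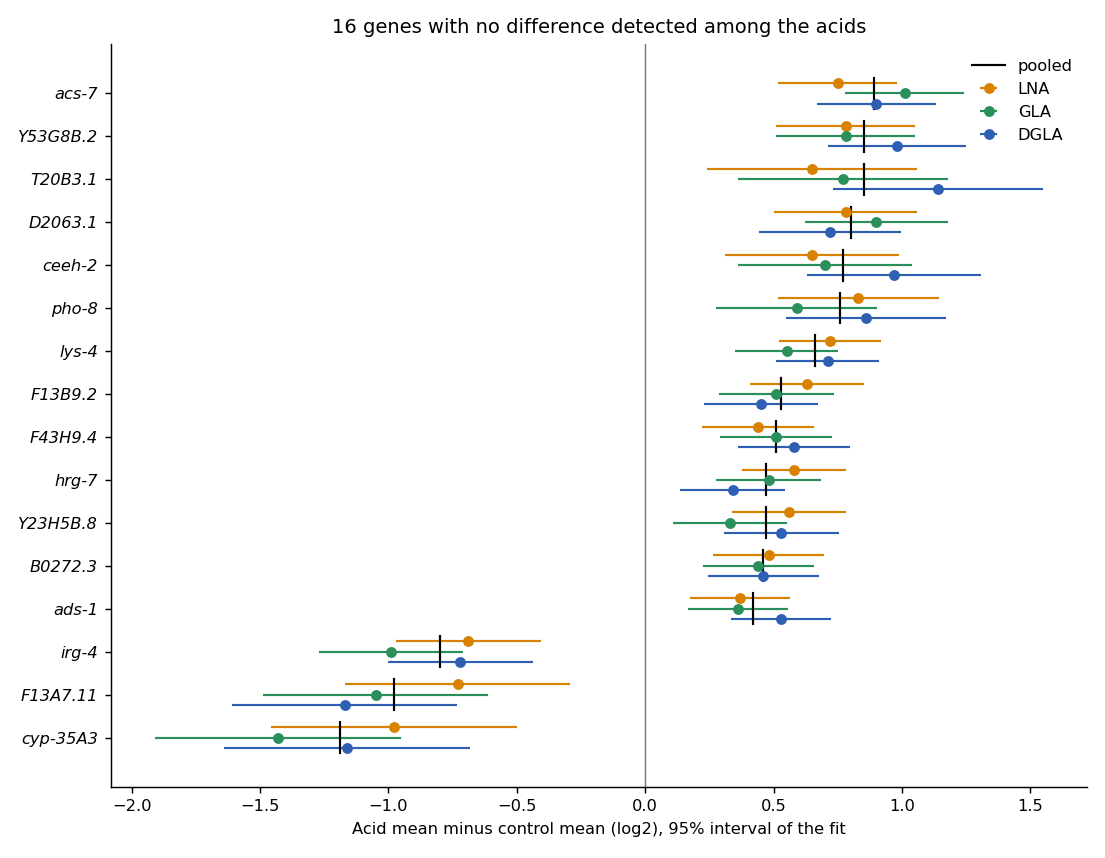
Change against control (log2, horizontal axis) with LNA, GLA and DGLA for the 16 called genes without a detected difference among the acids, as points with 95% intervals of the fit and a black tick for the pooled change. The 3 points of a gene lie on the same side of 0 and within 0.04 to 0.49 of each other, 13 genes above and 3 below 0.

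In the 23 genes past both tests, 11 higher and 12 lower, the pooled change stood for unequal single changes. The largest inequality was in cyp-13A12, a cytochrome P450 of a kind that acts on polyunsaturated fatty acids. It read 3.85, 3.58 and 4.07 with LNA, 7.96, 7.82 and 7.81 with GLA and 6.72, 6.55 and 6.32 with DGLA, against 3.90, 4.13 and 4.23 in control. LNA arrays overlapped control and the arrays of the other acids lay far above. The pooled change of 1.99 (adjusted p = 1.5e-05) came from -0.25 with LNA, 3.78 with GLA and 2.44 with DGLA. GLA exceeded LNA by 4.03 (joint adjusted p = 4.52e-07) and DGLA lay below GLA by 1.33 (0.00292). A GLA maximum was seen in ugt-37 too, with 5.01, 5.56 and 5.36 for LNA, 8.20, 8.25 and 8.22 for GLA and 6.43, 6.05 and 6.16 for DGLA, against 5.54, 5.52 and 5.13 in control. Its pooled change was 1.18 (0.00141), and GLA exceeded DGLA, which lay lower by 2.01 (0.00026). The pooled change of ugt-35, 0.58 (0.0251), came from 0.15, 1.23 and 0.37 with LNA, GLA and DGLA, and its call ended without control replicate 1 or 3, GLA replicate 1 or 3 or DGLA replicate 2 (0.0517 to 0.177) and without LNA replicates 2 and 3 (0.0694).

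A DGLA maximum was seen in cdr-4 of the cadmium responsive family, with 6.23, 6.45 and 6.33 for LNA, 7.02, 7.07 and 6.92 for GLA and 8.41, 8.31 and 8.31 for DGLA, against 6.49, 6.44 and 6.46 in control. The LNA arrays met those of control, the GLA arrays lay above both and the DGLA arrays above all others. The pooled change was 0.77 (adjusted p = 0.000445), with DGLA over GLA by 1.34 (joint adjusted p = 4.6e-05) and GLA over LNA by 0.67 (0.0126). The same order held in nta-1 (-0.31, 0.72 and 2.41 with LNA, GLA and DGLA), F25D1.5 (0.07, 0.88 and 1.82), the glutathione S-transferase gene gst-33 (-0.14, 1.08 and 2.01) and T16G1.6 (-0.03, 0.32 and 1.59). F25D1.5 had a control mean of 2.35, below the lower quartile of every array, where signal is close to background. T16G1.6 did not pass the pooled test without control replicate 1 or 2 (0.0531 to 0.0651), and gst-33 did not pass without control replicate 1 or 2, LNA replicate 1 or 3, any GLA array or DGLA replicate 3 (0.0514 to 0.192) nor without LNA replicates 2 and 3 (0.0987). With LNA alone, none of these 8 genes passed against control (adjusted p 0.523 for nta-1, higher for the others).

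Counted over the 84 called genes, GLA minus LNA passed in 10 of the higher genes, all with GLA higher, and in 2 of the lower genes, both with GLA lower (0.0824% of all genes passed in either direction). DGLA minus LNA passed in 8 higher genes, all with DGLA higher, and in 12 lower genes, all with DGLA lower (0.232% of all genes). DGLA minus GLA passed in 7 higher genes, 4 with DGLA and 3 with GLA on top, and in 5 lower genes, all with DGLA lower (0.0785% of all genes). At the same dose, then, acids that differ by a double bond (GLA and LNA) and acids that differ by chain length (DGLA and GLA) each differed in response in some of these genes. In the 16 genes above no such difference was detected, with intervals that reached 0.26 to 0.93. The amount of each acid that the animals took up was not analysed here.

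**Figure D5:**
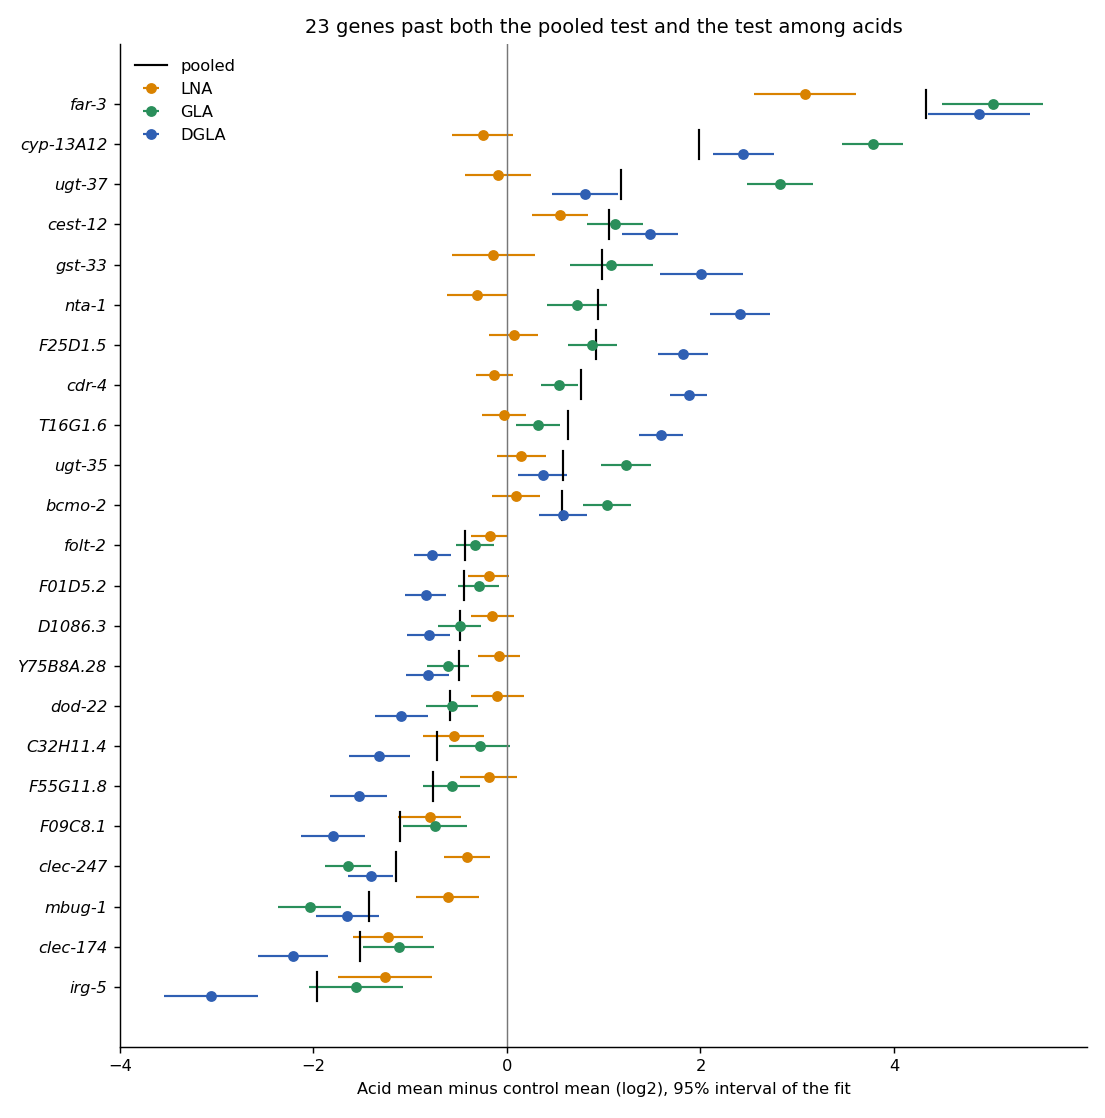
Change against control (log2, horizontal axis) with LNA, GLA and DGLA for the 23 genes past both the pooled test and the F test among acids, as points with 95% intervals of the fit and a black tick for the pooled change. In cyp-13A12, ugt-37, nta-1, cdr-4 and gst-33 the LNA interval reaches 0 or below while GLA or DGLA lies well above, and in far-3, clec-174 and irg-5 all 3 acids lie on the same side of 0.

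Just inside the pooled threshold lay T20B3.1 (0.85, adjusted p = 0.0458) and F01D5.2 (-0.44, 0.0472), and just outside it cyp-13A2 (0.67, 0.0508), M7.12 (0.60, 0.0551) and spig-1 (0.43, 0.0551). At an unadjusted p under 0.05, 1483 genes (5.82%) passed the pooled test. That share is close to the fraction of 0.05 that this threshold lets through where nothing changes.

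None of the 145 markers of 10 tissues, stages or germ cell types passed the pooled test. Of all genes 0.330% passed, so a lack of calls in a list of this size is near the share of all genes and says little about tissue or stage. Median changes of the marker lists ran from -0.08 for body wall muscle to 0.12 for pharynx. The 12 intestinal markers had a median change of 0.04, and their summed signal (log2 of the sum of linear values) was 13.51 to 13.62 with the acids and 13.47 to 13.51 in control. For the 10 body wall muscle markers this sum was 13.94 to 14.62 with LNA, 14.56 to 14.58 with GLA and 14.49 to 14.61 with DGLA, and 14.51 to 14.60 in control. For 15 molting genes it was 13.93 to 14.43 with the acids and 13.67 to 14.43 in control. The adult cuticle collagen markers col-19, col-7, col-62 and col-63 had pooled changes of -0.06 to -0.004, which averaged unequal single changes. Their median change was 0.08 with LNA, -0.002 with GLA and -0.19 with DGLA. In col-63 the values were -0.425, 0.178 and 0.234, and in col-19 they were 0.222, -0.027 and -0.213. Their summed signal was 11.50 to 12.05 with the acids and 11.87 to 11.99 in control. The part of tissue or stage in the single gene results was not tested beyond these values.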

How the data were processed

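RNA of 12 samples was measured on Affymetrix arrays. The deposited values are log2 signals per probe set that the authors made with RMA. The submitters' processing notes name 2 programs, Transcriptome Analysis Console and Affymetrix Expression Console, with versions and genome build not given in the sources used here. Of 29317 probe sets 25546 carried 1 gene symbol, 646 several and 3125 none. A gene with several probe sets was read from the brightest. Neighbours came from the RefSeq table of WBcel235.

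All probe sets entered 1 limma 3.58.1 fit (R 4.3.3) of 4 group means with no filter. The pooled contrast and the F test among acids were adjusted by Benjamini-Hochberg, and the 3 acid pairs jointly, an adjustment chosen after the data were seen. The fit was tested on simulated data. Same-numbered replicates of different groups deviated together little (18 correlations, -0.133 to 0.216, median 0.007, 3 above 0.1). Differently numbered pairs ran from -0.158 to 0.136, so the highest same-numbered value lay above all of them. No block was used in the main fit. No batch is named, and the number of arrays limits precision.

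The members, lists and rules were chosen with earlier results of these data known. Named were the 12 furthest rises and falls with no overlap, up to 8 rises and 8 falls moved alike, 10 graded genes, up to 3 called genes a list, fat-1 to fat-7, elo-1, elo-2, and called genes that passed with no single acid. Other genes were chosen after their values were seen. Alternatives covered the block, 1 acid group, priors, weights, scalings, a filter on dim probe sets, left-out arrays and groups, and 1 probe set per gene.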

Additional observations from a re-analysis of the deposited data

Results flagged for a closer look

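For 16 of the named genes the acids differed in limma's F test after adjustment over all probe sets, and the widest difference between 2 acid means (log2) is given here. Among genes that rose with the pooled acids it was 4.03 for cyp-13A12, 2.91 for ugt-37, 2.72 for nta-1, 2.15 for gst-33, 2.01 for cdr-4, 1.94 for far-3, 1.75 for F25D1.5, 1.62 for T16G1.6, 1.08 for ugt-35 and 0.93 for cest-12. Among genes that fell it was 1.80 for irg-5, 1.43 for mbug-1, 1.33 for F55G11.8, 1.24 for clec-247, 1.09 for clec-174 and 1.06 for F09C8.1. The difference among acids passed under every alternative in cyp-13A12 and nta-1. Without LNA replicates 2 and 3 it missed the threshold in cest-12 (adjusted p = 0.352), mbug-1 (0.105), gst-33 (0.081), F09C8.1 (0.0761) and clec-174 (0.0747). Of 25 alternatives, the difference among acids missed the threshold in 14 for cest-12 (0.056 to 0.779) and in 13 for clec-174 (0.0535 to 0.817). These included the fits without any 1 GLA array for cest-12 and without any 1 DGLA array for clec-174, and without LNA replicate 2 or 3 alone for both. In F25D1.5 an LNA mean of 2.41 and a control mean of 2.35 were both under the smallest array lower quartile (2.903) and close to background, so the size of its difference is uncertain. Groups of 3 arrays were not tested for outlying arrays.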

How the results depend on the processing

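Against 89 probe sets in the pooled test, 23 passed with the 9 acid arrays as 1 group, which puts differences among acids into the error, 47 without the GLA group and 31 without the DGLA group. Leaving out 1 array gave 51 to 88, with 51 and 52 without control replicates 1 and 2. Counts under the other alternatives were 71 to 118. Against 73 in the F test among acids, array weights gave 118, leaving out LNA replicates 2 and 3 gave 30, and leaving out the LNA, GLA or DGLA group gave 21, 35 and 9. Leaving out 1 array gave 30 to 1067, the most without LNA replicate 1. The cause of these shifts was not tested. With the replicate number as a replicate block, 75 probe sets passed the pooled test (70 of them among the 89) and 46 the F test, and 5 of 52 named calls ended, those of hrg-7, B0272.3, Y23H5B.8, F43H9.4 and F13A7.11.

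No named gene reversed. Of the 52 named genes called, 31 kept the call without each array in turn and 13 under every alternative, 17 lost it without control replicate 2, 25 without the DGLA group and 31 with the acids as 1 group. Gained calls were fat-7 without the LNA group and elo-1 with an intensity trend. No scaling moved the median change of all probe sets by more than 0.026. Low signals lie close to background, and no detection call was used.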
